A study of Caenorhabditis elegans with 4 samples.

Results

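The HTZ-1 peaks described here lie in the middle of chromosome V of the nematode Caenorhabditis elegans, in the stretch from 5.9 to 16.55 Mb that recombines rarely. They were taken from a deposited peak list on the WormBase WS220 build as all peaks on V with a midpoint between 5900000 and 16550000 and a width of up to 5 kb. The rule selected 400 of the 4940 peaks in that list, here called the first list. It left out 75 wider peaks with midpoints in the same stretch. The same rule gave 374 of the 4282 nuclear peaks of another deposited list, here called the second list. A further 50 peaks there were wider than 5 kb.

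The peaks come from chromatin immunoprecipitation and sequencing (ChIP-seq) of whole wild-type N2 worms, the common laboratory strain, at the L3 larval stage. Worms were grown at 20 °C as a mixed population of males and hermaphrodites, so a peak stands for many tissues at once. The series held 2 HTZ-1 ChIP libraries, made with an affinity-purified rabbit polyclonal antibody, and 2 input DNA libraries of the same kind of worms. Neither list names the libraries behind it, and read depth per library is unknown here, so the lists are set side by side as 2 calls on 1 experiment and not as replicates.

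HTZ-1 is the worm's H2A.Z, a variant that takes the place of histone H2A in some nucleosomes. H2A.Z is put into chromatin by remodelling complexes of the SWR1 type and is found in many organisms in nucleosomes beside gene starts. The middle of each worm autosome holds most of the widely used and conserved genes, while the arms hold more repeats. Chromosome V is known for its large families of chemoreceptor and nuclear hormone receptor genes, which tend to sit in local groups. Genes under the peaks were not assigned, since an annotation of WS220 was not used here.

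HTZ-1 peaks were sparser in the V centre than in the centres of the other autosomes together. Density over the whole list was not computed, so V is set only against these centres. Density in the first list was 37.6 peaks per Mb over the 10.65 Mb V centre and 56.2 per Mb in the 31.4 Mb made up by the centres of I, II, III and IV, each taken as the same relative stretch of its chromosome. The rate ratio was 0.668 (95% interval 0.565 to 0.790, quasi-Poisson fit over windows of up to 0.5 Mb, n = 87 windows, adjusted p = 2.77e-05). The second list had 35.1 per Mb in the V centre and 43.1 per Mb in the other centres, a ratio of 0.815 (0.713 to 0.932, quasi-Poisson fit, n = 87 windows, adjusted p = 0.00644). The p-values here and below are adjusted over 12 tests (6 measures in each of 2 lists, Benjamini-Hochberg). V is a single chromosome, so the intervals measure the spread between windows and not between chromosomes.

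By chromosome, the V centre was sparser than some centres, while its difference from that of IV did not pass in either list. Peak density in the first list was 37.6 per Mb on V, 61.3 on I, 53.4 on II, 66.8 on III and 46.0 on IV. Density on V was lower than on I, II and III, with ratios of 0.613, 0.703 and 0.563 (quasi-Poisson fits, n = 37 or n = 38 windows, adjusted p = 0.000237, 0.00621 and 4.70e-05 over 48 tests). Against IV the ratio of 0.817 did not pass (95% interval 0.650 to 1.03, quasi-Poisson fit, n = 40 windows, adjusted p = 0.145). Densities of the second list were 35.1 on V, 45.0 on I, 39.7 on II, 51.3 on III and 37.9 per Mb on IV. There V was lower than I and III, with ratios of 0.780 and 0.685 (quasi-Poisson fits, n = 38 and n = 37 windows, adjusted p = 0.0136 and 0.000188). Against II and IV the ratios of 0.885 (0.753 to 1.04) and 0.927 (0.764 to 1.12) did not pass.

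**Figure D1:**
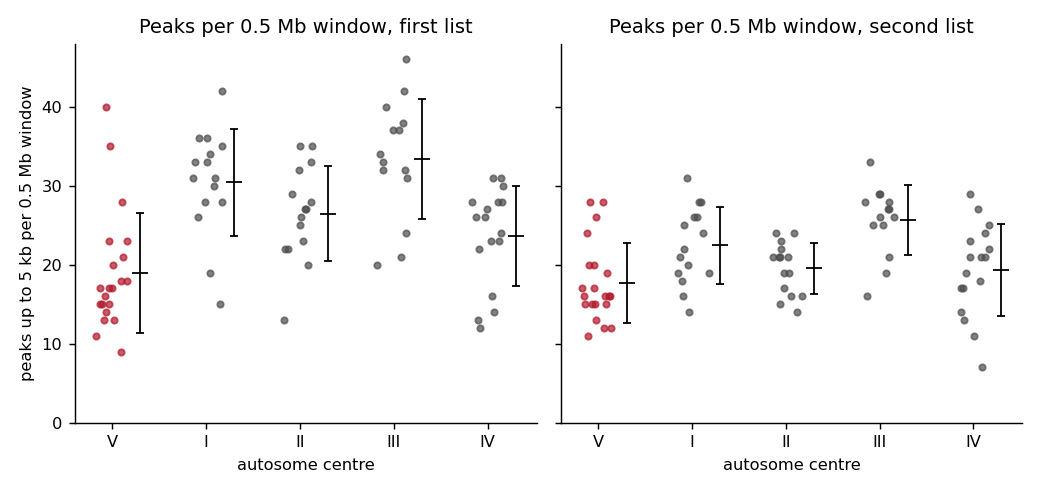
Number of HTZ-1 peaks up to 5 kb in each full window of 0.5 Mb (points) by autosome centre, with mean and SD over windows (bars), for the first list (left) and the second list (right). V has the lowest mean in both lists, 19.0 and 17.7 peaks per window, and its highest window in the first list, with 40 peaks, lies far above its mean.

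The V centre also had a smaller share of its bases under peaks than the other centres together. Peaks up to 5 kb covered 8.94% of the V centre and 14.1% of the other centres in the first list. They covered 8.59% of the V centre and 11.3% of the other centres in the second list. Wider peaks, which are not among the peaks described here, numbered 7.04 per Mb in the V centre and 13.96 per Mb in the other centres in the first list. They numbered 4.69 per Mb in the V centre and 9.03 per Mb elsewhere in the second list. With wider peaks included, coverage was 14.3% in the V centre and 25.1% in the other centres in the first list, and 11.5% in the V centre and 16.96% in the other centres in the second list. These shares were not tested.

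Density was uneven within the V centre. Over 21 full windows of 0.5 Mb the first list held 9 to 40 peaks, with a median of 17, and the second list 11 to 28, with a median of 16. The 3 densest windows of the first list lay close together. The window from 11.9 to 12.4 Mb held 40 peaks in the first list and 28 in the second list. The window from 13.4 to 13.9 Mb held 35 and 28, and the one from 12.4 to 12.9 Mb held 28 and 26. Between them, the window from 12.9 to 13.4 Mb held 16 and 15 peaks, close to the median of V. The stretch from 11.9 to 13.9 Mb, picked after the values were seen, thus held 119 of the 400 peaks of the first list, or 59.5 per Mb, and 48.5 peaks per Mb of the second list. The remaining 8.65 Mb of the V centre held 32.5 peaks per Mb by the first list and 32.0 by the second. The stretch was picked where first-list counts were highest, so the closeness of the lists outside it is no separate finding.

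The 3 sparsest full windows were 15.9 to 16.4 Mb, 10.4 to 10.9 Mb and 9.9 to 10.4 Mb, with 9, 11 and 13 peaks in the first list and 12, 11 and 16 in the second list. The window from 15.4 to 15.9 Mb tied with the last of these, with 13 peaks in both lists. These windows differed in their wider peaks. The window from 9.9 to 10.4 Mb held 9 peaks over 5 kb in the first list, the highest number in any window of the V centre, and the one from 10.4 to 10.9 Mb held 6. The window from 15.4 to 15.9 Mb held 2 such peaks. The one from 15.9 to 16.4 Mb held 1, and its 9 narrower peaks had a median width of 1447 bp and covered 2.75% of the window.

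**Figure D2:**
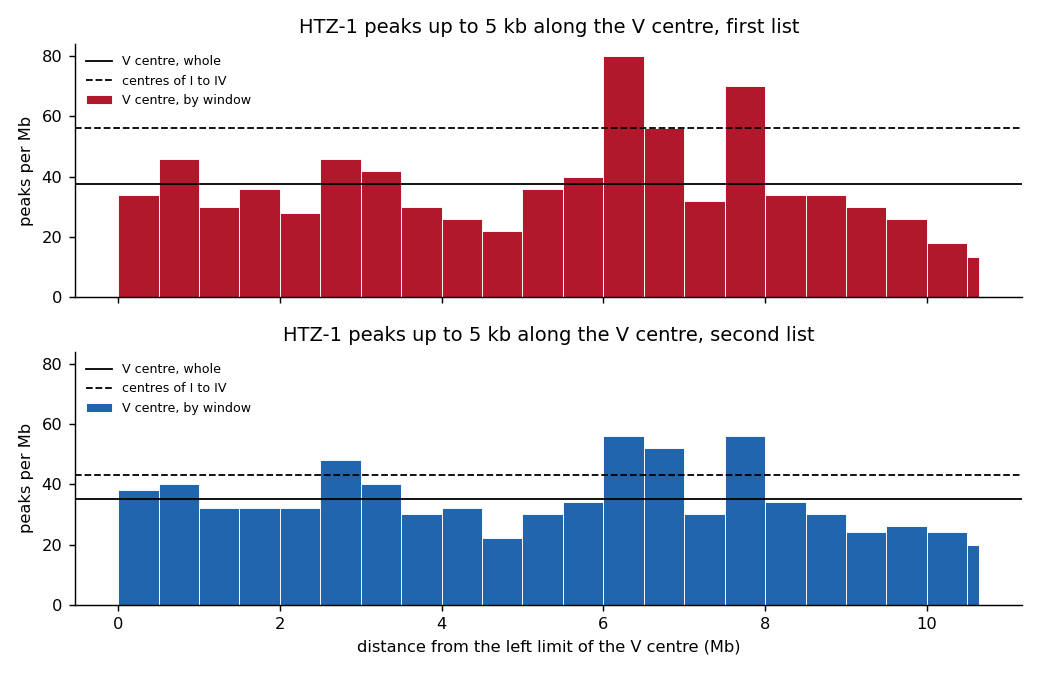
Peaks up to 5 kb per Mb in successive windows of 0.5 Mb (the last window is shorter) against distance from the left limit of the V centre, for the first list (top) and the second list (bottom), with the mean of the V centre (solid line) and of the centres of I to IV (dashed line). Windows 6 to 8 Mb from the left limit reach 80.0 peaks per Mb (first list) and 56.0 (second list), and density falls toward the right limit.

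Peaks thinned out near the right limit of the V centre. Its right side, which holds the dense stretch, was not the poorer side as a whole. It held 217 peaks by the first list and 192 by the second, against 183 and 182 on the left side of equal length. The last 1 Mb inside the right limit held 19 peaks by the first list and 21 by the second, and the 1 Mb beyond it held 10 and 13. At the left limit the first 1 Mb inside held 40 and 39 peaks, and the 1 Mb outside it 39 and 35. At the left limit the numbers on either side were thus close. The peaks up to 5 kb nearest to it in the first list lay 40.4 kb inside and 109 kb outside. At the right limit the nearest such peaks lay 11.6 kb inside and 3.49 kb outside. Wider peaks, left out of these distances and numbers, may lie nearer.

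The spread between windows of 0.5 Mb was wide in V in the first list. The variance of peak number was 3.03 times its mean in the V centre in the first list, against 1.36 to 1.74 times in the centres of I, II, III and IV. It was 1.43 times on V and 0.548 to 1.74 times on the others in the second list. How V ranked varied with window size in the first list. At 50 kb the ratio was 1.62 on V and 0.960 to 1.49 on the others, and at 1 Mb 4.02 on V and 0.720 to 2.58 on the others. At 100 kb V had 1.57 and IV a higher 1.70, and at 250 kb V had 1.99 and II 2.00. At 50 kb, 49 of 213 windows on V (23.0%) held no peak up to 5 kb in the first list, though wider peaks may lie there. The shares of such windows on the other centres ran from 4.29% on III to 17.4% on IV. In the second list V had 38 such windows (17.8%), close to IV with 16.9%, and III had the lowest share, 4.29%. These ratios describe the lists and were not tested. Across the 21 full windows, which are not independent replicates, peak numbers of the 2 lists had a Spearman rho of 0.851 and a Pearson r of 0.930. Since both lists come from 1 experiment, a likeness between them is no independent evidence.

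HTZ-1 peaks lay farther apart on V. In the V centre of the first list the median gap between a peak and the next peak of any width was 8228 bp (quartiles 1855 and 25168 bp, 399 gaps), against 3917 bp in the other centres (quartiles 1029 and 12926 bp, 1764 gaps). On a log scale, gaps on V were 1.92 times as long (95% interval 1.60 to 2.31, linear fit of log2 gap plus 1 bp with errors clustered on windows, n = 87 windows, adjusted p = 4.35e-09). Medians of the second list were 12796 bp in the V centre and 9084 bp in the other centres. The ratio there was 1.30 (1.12 to 1.501, clustered linear fit, n = 87 windows, adjusted p = 0.00127). In the first list gaps on V were longer than on each of I, II, III and IV, by 1.72 to 2.09 times (clustered linear fits, n = 37 to 40 windows, adjusted p of 0.000407 or less over 48 tests). By the second list they were longer than on I (1.38 times) and III (1.41 times), while II (1.22, 1.02 to 1.47) and IV (1.19, 0.951 to 1.49) did not pass (clustered linear fits, n = 37 to 40 windows, adjusted p = 0.000923, 0.00396, 0.0693 and 0.178). The second list's difference kept its direction but did not pass with another measure of the gap or with fewer peaks kept. Measured to the nearer of both neighbours its ratio was 1.21 (unadjusted p = 0.0757), and in its higher-scoring 50% of peaks 1.24 (unadjusted p = 0.0682, clustered linear fits, n = 87 windows).

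Short gaps made up a smaller share on V than in the other centres in the first list. Gaps under 5 kb made up 167 of 399 (41.9%) in the V centre and 976 of 1764 (55.3%) in the other centres, against 46.1% over all nuclear peaks up to 5 kb of the list. V thus lay somewhat below the share over the whole list, and the other centres together lay farther above it. The odds ratio was 0.581 (95% interval 0.493 to 0.685, logistic fit with errors clustered on windows, n = 87 windows, adjusted p = 2.23e-08), and V was lower than each of the other 4 (odds ratios 0.540 to 0.686, adjusted p of 0.00621 or less in clustered logistic fits, n = 37 to 40 windows). Gaps under 5 kb in the second list made up 104 of 373 (27.9%) in the V centre and 428 of 1350 (31.7%) in the other centres, against 29.6% over all its nuclear peaks up to 5 kb. That difference did not pass (odds ratio 0.833, 0.663 to 1.05, clustered logistic fit, n = 87 windows, adjusted p = 0.138). With a limit of 10 kb it did (0.724, 0.593 to 0.882, unadjusted p = 0.00166, clustered logistic fit, n = 87 windows).

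Long stretches without any peak took up much of the V centre. The first list had 50 gaps over 50 kb in the V centre, which held 39.9% of its length, and 93 such gaps in the other centres together, which held 20.8% of theirs. The second list had 47 in the V centre (36.1% of the length) and 102 in the other centres (22.8%). Of the other centres IV was nearest to V, with 39 such gaps (32.5% of its length) in the first list and 34 (28.2%) in the second. The shares on I, II and III were 15.8, 21.7 and 10.2% in the first list and 24.1, 23.1 and 14.1% in the second. Gaps over 100 kb numbered 13 in the V centre and 10 in the other 4 centres together in the first list, and 12 in the V centre and 7 in the others in the second list. These shares were not tested.

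The longest gap of the V centre in the first list was 203.5 kb, at 7242724 to 7446228. The second list placed 1 peak there, with a score of 91.82, a low value for a list that begins at 50.69 in this stretch. The score is the authors' value for each peak, has no stated scale and is used here only to describe or rank peaks within a list. The next gaps ran over 15611221 to 15765531 (154.3 kb), 15868939 to 16021709 (152.8 kb), 6841358 to 6981690 (140.3 kb) and 8633074 to 8772845 (139.8 kb). Second-list peaks touching them numbered 1, 0, 3 and 2. Those at the edges of a gap belonged to peaks that both lists hold. The lists disagreed inside the last pair of these gaps, where the second list had a peak of score 1221 at 6941701 to 6943220 and peaks of score 3100 and 1113 between 8633074 and 8772845. The longest gaps of the second list ran over 15868925 to 16039801 (170.9 kb), 15611188 to 15765480 (154.3 kb) and 10785456 to 10937903 (152.4 kb). First-list peaks in or touching them numbered 4, 1 and 4, with highest scores of 2349, 132.2 and 2719. All 4 at the last of these gaps lay inside it, so the lists disagreed there as well. Both lists left long gaps at 15.61 to 15.77 Mb and from 15.87 Mb to about 16.02 Mb.

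**Figure D3:**
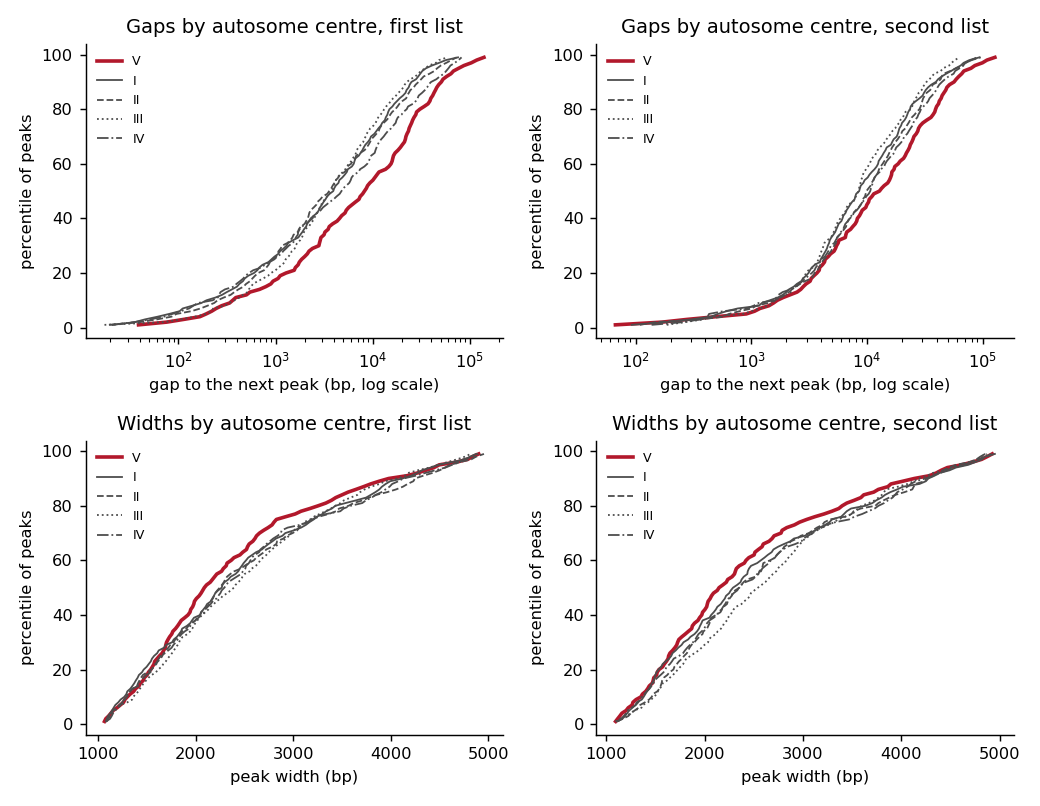
Percentiles of the gap to the next peak (top, log axis, bp) and of peak width (bottom, bp) for peaks up to 5 kb in each autosome centre, in the first list (left) and the second list (right). At the median the V curve lies to the right of the others for gaps (8228 and 12796 bp) and to the left for widths (2088 and 2147 bp), and it crosses other curves at some lower percentiles and, for widths, at the highest ones.

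Scaled to its mean gap, the spread of gaps on V lay within the range of the other centres. The SD of gaps divided by their mean was 1.46 on V and 1.43 to 1.57 on I to IV in the first list, and 1.197 on V and 1.05 to 1.21 on I to IV in the second list. Gaps shorter than 10% of the mean gap of their centre made up 27.4% on V in the first list, against 20.8 to 30.5% on the others. They made up 13.0% on V and 7.49 to 12.1% on the others in the second list. These figures were not tested.

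In the first list a smaller share of peaks lay in local clusters on V than in the other centres together. A cluster here is a run of 4 or more peaks of any width with every gap under 5 kb. The limit is fixed, both here and for short gaps. A centre with fewer peaks per Mb thus tends to have longer gaps, fewer short ones and fewer clusters. What part the lower density of V has in these measures was not tested. Such clusters held 106 of the 400 V peaks (26.5%) and 659 of the 1767 peaks of the other centres (37.3%), against 29.4% over all nuclear peaks up to 5 kb of the list. The odds ratio was 0.606 (95% interval 0.412 to 0.892, clustered logistic fit, n = 87 windows, adjusted p = 0.0199). It did not pass in the higher-scoring 50% of peaks, where it was 0.149 (0.0194 to 1.15, unadjusted p = 0.0677), nor with gaps under 2 kb, where it was 0.523 (0.264 to 1.04, unadjusted p = 0.0628, clustered logistic fits, n = 87 windows). V and IV, where 28.0% of peaks were in clusters, lay close to the share over the whole list, and I, II and III lay above it with 39.7 to 40.6%. Against IV the odds ratio was 0.925 (0.540 to 1.59, clustered logistic fit, n = 40 windows, adjusted p = 0.804). Second-list clusters held 17 of 374 V peaks (4.55%) and 105 of 1354 elsewhere (7.75%), against 7.86% over all its nuclear peaks up to 5 kb (odds ratio 0.566, 0.232 to 1.38, clustered logistic fit, n = 87 windows, adjusted p = 0.227). The second-list shares were 5.83% on II and 4.73% on IV, close to V, and 10.1% on I and 9.97% on III. Peaks with no other peak within 5 kb made up 138 of 400 (34.5%) on V in the first list, against 16.8 to 23.2% on I to IV. They made up 192 of 374 (51.3%) on V in the second list, against 43.5 to 49.5% on I to IV. The share of lone peaks was not tested. Its value over all nuclear peaks of each list was not computed, so whether V departs from the whole list is not known here.

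The V centre held 26 clusters in the first list, 2.44 per Mb. The other centres together had 4.96 per Mb, and IV, the nearest to V, had 3.14. The V clusters spanned 12.6 to 42.4 kb, with a median of 19.8 kb. The fullest held 7 peaks, against up to 13 in other centres. Of the 26, 7 began in the dense stretch from 11.9 to 13.9 Mb. The second list held 5 clusters in the V centre, 0.469 per Mb, against 0.859 per Mb in the other centres together. II and IV also had 5 each, 0.642 and 0.560 per Mb. The fullest on V had 5 peaks.

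The cluster with the most peaks up to 5 kb was V 13550937 to 13573021, where 7 peaks covered 80.7% of 22.1 kb. Neighbouring peaks there were 55 to 2180 bp apart, and their scores ran from 189.2 to 3100. The second list had 2 peaks in it, opposite the first and the sixth, which scored 1804 and 3100. The fifth, 13563578 to 13565777, had no counterpart although its score of 2014 was the second highest of the cluster.

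The clusters that came next both lay in the densest window. V 12092782 to 12112691 held 6 peaks in 19.9 kb with scores of 71.67 to 1007, and V 12177935 to 12192222 held 5 peaks in 14.3 kb with scores of 77.79 to 1195. The second list had 3 peaks in each. In both clusters the peaks with a counterpart were the 3 with the highest scores. That last cluster was 1 of 4 with 5 peaks up to 5 kb, and the shorter spans were taken first. Of the others, V 8955982 to 8977915 and V 11108029 to 11130178 contained a wider peak each, and V 13657653 to 13680433 did not. The first of them held 5 peaks up to 5 kb and 1 of 6877 bp, and 4 of these 6 peaks were met by the second list. The one at 11108029 held 5 and 1 of 7240 bp, with gaps of 15 to 1083 bp, and peaks covered 92.3% of it. The second list had 2 peaks there, 1 of which ran across the last pair of first-list peaks. In V 13657653 to 13680433, with scores of 269.4 to 3100, 4 of 5 peaks were met.

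**Figure D4:**
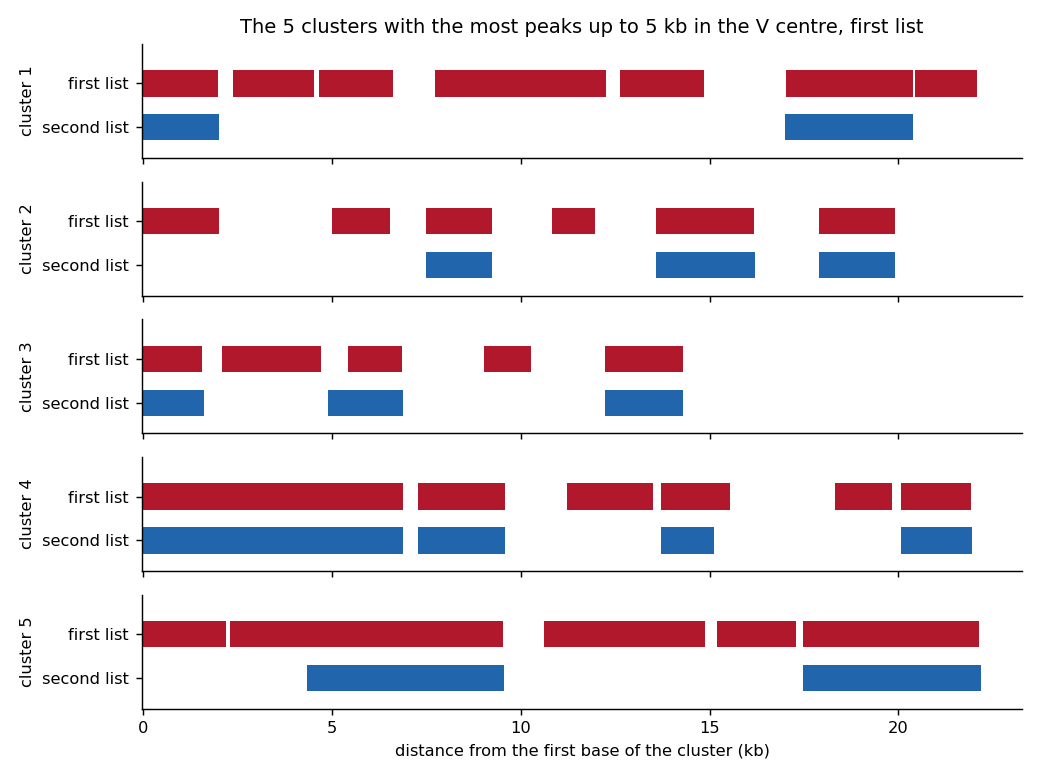
Peaks of the first list (upper row) and the second list (lower row) in each of the 5 clusters with the most peaks up to 5 kb in the V centre (of tied clusters, the shorter ones), against distance in kb from the first base of the cluster. The first list shows 5 to 7 peaks a cluster and the second list 2 to 4 over the same stretches.

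The 3 clusters of the second list with the most peaks up to 5 kb were V 6094790 to 6113065, V 13657629 to 13680453 and V 14177259 to 14205616. Each held 4 such peaks, and the last also held 1 of 8232 bp. Every peak in these 3 clusters was met by the first list, and of the other 2 clusters of that list, V 8955975 to 8977935 was met in full and V 8459958 to 8487079 in 3 of 4 peaks. Of the 26 first-list clusters, 3 were met in full, at V 6094800, 14177276 and 15055344.

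Peaks on V were slightly narrower than in the other centres together in the second list, and the same direction in the first list did not pass. Median width in the first list was 2088 bp in the V centre (quartiles 1628 and 2827 bp) and 2283 bp in the other centres (quartiles 1658 and 3186 bp). The ratio of widths was 0.951 (95% interval 0.897 to 1.01, clustered linear fit of log2 width, n = 87 windows, adjusted p = 0.119). Second-list medians were 2147 bp in the V centre and 2386 bp in the other centres, a ratio of 0.931 (0.876 to 0.990, clustered linear fit, n = 87 windows, adjusted p = 0.0339). That call was lost without III (0.942, 0.884 to 1.003, unadjusted p = 0.0599), without the V stretch from 11.9 to 13.9 Mb (0.931, unadjusted p = 0.0644) and in the higher-scoring 50% of peaks (0.954, unadjusted p = 0.158, clustered linear fits, n = 72 to 87 windows). The rule cuts these widths at 5 kb. It left out 15.8% of V peaks and 19.9% of the others in the first list, and 11.8% and 17.3% in the second. With peaks of all widths the ratios were 0.909 and 0.890 (unadjusted p = 0.0160 and 0.00245, clustered linear fits, n = 87 windows), and both passed. The first list's ratio also passed with centres from the genetic map, whose limits may stem from another build (0.940, unadjusted p = 0.0375, clustered linear fit, n = 85 windows). By chromosome, the second list passed only against III (0.902, 0.832 to 0.978, clustered linear fit, n = 37 windows, adjusted p = 0.0344 over 48 tests). Its ratios against I, II and IV were 0.958, 0.928 and 0.937 and did not pass. In the first list none of the single chromosomes passed. Width differed little with the neighbourhood. On V in the first list the median was 2031 bp for peaks alone, 2075 bp in runs of 2 or 3 peaks and 2190 bp in clusters.

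The narrowest peaks described here were V 7084084 to 7085105 (1022 bp, score 104.7) and V 14211195 to 14212230 (1036 bp, score 70.82). The widest were V 14421786 to 14426734 (4949 bp, score 3100) and V 6789362 to 6794302 (4941 bp, score 179.6). Just past the limit of 5 kb lay V 9689770 to 9694791 (5022 bp, score 1852) and V 13040728 to 13045860 (5133 bp, score 1600). All 6 were met by a second-list peak of nearly the same width, between 1053 and 5138 bp.

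Median scores on V lay within the range of the other centres. The median score in the first list was 395.4 on V (quartiles 152.7 and 977.0) and 361.2 to 448.4 on I to IV. It was 323.2 on V and 267.0 to 355.6 on I to IV in the second list. The upper quartile on V was below those of I to IV in the first list (977.0 on V, 1079 to 1211 on the others) and above them in the second list (759.2 on V, 649.8 to 724.4 on the others). The value of exactly 3100, which many peaks share, was given to 24 of the 400 V peaks (6%) and to 3.61 to 5.85% of peaks on I to IV. The highest scores on V in the first list were 3146 at 13817810 to 13820453 and 3112 at 15187195 to 15190961. They were followed by the 24 at 3100, of which the first by position were 6094800 to 6099204, 7574760 to 7579027 and 7579297 to 7584160. Their second-list counterparts scored 2212, 946.2, 1323, 412.0 and 450.8. Higher scores went with wider peaks, with a Spearman rho over the V peaks of 0.703 in the first list and 0.511 in the second list, given as a description since neighbouring peaks are not independent.

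The second call met most V peaks, at nearly the same bases. Of the 400 first-list peaks, 324 (81.0%) overlapped a second-list peak by at least 1 bp, against 1242 of 1767 (70.3%) in the other centres and 78.6% over all nuclear peaks up to 5 kb of the list. The odds ratio of V against the other centres was 1.80 (95% interval 1.35 to 2.40, clustered logistic fit, n = 87 windows, adjusted p = 0.000327), and it was 3.93 (unadjusted p = 0.000896) in the higher-scoring 50% of peaks. By chromosome V passed against I (2.05), II (2.00) and III (1.81) but not IV (1.36, 0.973 to 1.89, clustered logistic fits, n = 37 to 40 windows, adjusted p = 0.000691, 0.00108, 0.0035 and 0.133). V lay close to the share over the whole list, and the centres of I, II and III lay below it. In the other direction, 317 of 374 V peaks of the second list (84.8%) were met, against 1181 of 1354 (87.2%) elsewhere and 84.9% over all its nuclear peaks up to 5 kb (odds ratio 0.815, 0.534 to 1.24, clustered logistic fit, n = 87 windows, adjusted p = 0.337). In 316 pairs of a first-list V peak with a counterpart of its own, the midpoints were a median of 16 bp apart and the second-list peak was 1.01 times as wide (quartiles 1.00 and 1.04).

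Whether a V peak of the first list was met went with how close its neighbours were. All 138 V peaks with no other peak within 5 kb were met (Wilson 95% interval 97.3 to 100%), against 327 of 343 such peaks (95.3%, 92.6 to 97.1%) in the other centres. All 76 unmet V peaks had a neighbour within 5 kb, and 56 of them had one within 1 kb. With a nearest neighbour under 1 kb away, 82 of 138 V peaks (59.4%, 51.1 to 67.2%) were met, against 53.8% in the other centres. At 1 to 5 kb the share was 83.9% (76.4 to 89.3%) on V and 76.1% elsewhere. V peaks in clusters were met in 64 of 106 cases (60.4%), and those elsewhere in 383 of 659 (58.1%). Differences within a class of neighbours were not tested, and what part the longer spacing has in the higher share on V was not tested.

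Unmet V peaks also scored low. Their median score was 151.9 and their median width 1778 bp, against 491.5 and 2177 bp for those that were met, and none of the 24 at 3100 was unmet. These values were not tested. With the 400 peaks ranked by score, 62 of the 100 lowest were met, then 75 and 91 of the 100 next, and 96 of the 100 highest. The share of second-list V peaks that were met was 84.9% for the 192 V peaks that were alone and 84.6% for the 182 with a neighbour within 5 kb. Of its 57 V peaks without a first-list counterpart, 29 were alone, their median score was 155.3 and 3 of them scored 3100.

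**Figure D5:**
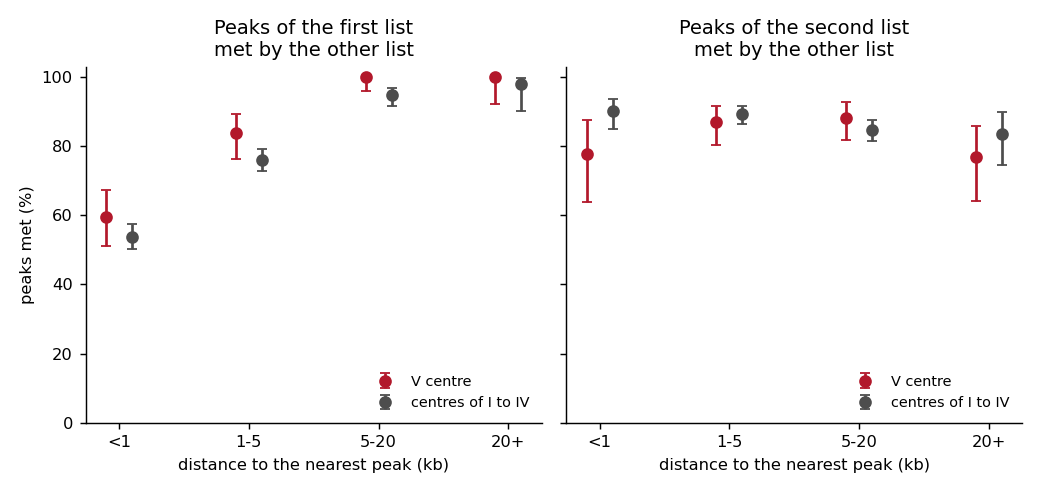
Share of peaks up to 5 kb met by the other list, in percent with Wilson 95% intervals, by distance to the nearest peak in kb, for the V centre and the centres of I to IV in the first list (left) and the second list (right). In the first list the share on V is 59.4% under 1 kb and 100% from 5 kb on, while the second list shows no such order.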

How the data were processed

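Peak lists were used as the authors deposited them, as GFF3 on WormBase WS220 per the file headers. Per the submitters' processing notes, BWA was used, with no version named. Caller, settings, use of input and pooling of libraries are not given in the sources used here. A score stands beside each deposited peak, on a scale that no header explains. Starts and ends are the authors' values, and no columns per library were left unused (0).

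The limits of the V centre came from the rule. Centres of I to IV were taken at the same relative position, 28.3 to 79.4% of the distance to the last peak end of the chromosome in either list. Peaks were assigned by midpoint. Windows of 0.5 Mb were counted from the left limit. Density was fitted by a quasi-Poisson model with an offset for length, widths and gaps by linear models on log2 values, and shares by logistic models, with errors clustered on windows (Python 3.11.15, statsmodels 0.14.6, SciPy 1.17.1). Clustered errors and intervals cover the spread between windows only. The functions were tested on simulated peaks. Each list was fitted alone.

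Alternatives were other windows, gap and overlap limits, all widths, the higher-scoring 50% of each list, merging within 1 kb, leaving out an autosome, an exact binomial test, and centres with genetic-map limits, entered by hand to the nearest 0.1 Mb from general knowledge of published maps and possibly of another build than WS220. Leaving out 11.9 to 13.9 Mb of V was added after seeing the data. Named sites follow a rule: the 5 clusters with the most peaks, the 5 longest gaps, the 5 highest scores, extremes of width and of window density in the first list, and the first 3 clusters and gaps of the second list. The peaks described, the lists and the tests were chosen with earlier results of these data known.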

Additional observations from a re-analysis of the deposited data

How the results depend on the processing

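Of 139 recomputed values, 128 kept their direction and their side of the 0.05 threshold, 11 kept only the direction and 0 turned. Density on V relative to the other centres was 0.578 to 0.707 (first list) and 0.744 to 0.863 (second list), and passed under all 12 alternatives in each. The lowest value in each list came from leaving out 11.9 to 13.9 Mb, the densest stretch of V, which could only lower the ratio. The lowest of the rest were 0.609 in the higher-scoring 50% (first list) and 0.764 with all widths (second list). Other window sizes, for each measure, and the exact binomial test, for density, keep the ratio by design and change only its interval. Gaps in the first list ran from 1.63 to 2.37 times and the odds of a short gap from 0.427 to 0.607, passing under each of theirs. The odds of being met ran from 1.68 to 3.93 in the first list. Calls were lost for width in the second list in the higher-scoring 50% (0.954), without III (0.942) and without the V stretch from 11.9 to 13.9 Mb (0.931), and for its gaps in the higher-scoring 50% (1.24) and to the nearer neighbour (1.21). They were lost for clusters of the first list in the higher-scoring 50% (0.149) and with gaps under 2 kb (0.523). Calls were gained for width in the first list with the genetic map (0.940) and all widths (0.909), and in the second list for gaps under 10 kb (0.724) and clusters with gaps under 10 kb (0.589). The cause was not tested. For the second list, clusters of 6 or more, with gaps under 2 kb or in the higher-scoring 50% could not be fitted, since no V peak was in one. With gaps under 2 kb no peak of the other centres was in one either. No paired analysis was possible because neither list holds values per library, and for the same reason no library could be left out. Read depth is unknown, so weak peaks that were missed cannot be told from sites without HTZ-1.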
